A study of Mus musculus with 23 samples.

Results

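The spleen of mice carrying the STAT5B change Y665H was compared with the spleen of wild-type (WT) mice, cell class by cell class, over all genes of 2 single-cell expression libraries. After filtering, 7397 cells of the Y665H library and 6453 cells of the WT library entered the comparison, 13850 cells in all. The series holds 23 samples, of which 16 are expression libraries and 3 are spleen expression libraries. Each cell was placed in a class by counts of unique molecular identifiers (UMIs, 1 for each captured RNA molecule) of fixed marker genes, such as Cd3d, Cd3e and Cd3g for T cells and Cd79a, Cd79b and Ms4a1 among those for B cells.

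Both groups were labelled C57BL/6 mice aged 2 months, of which the edited line was made in C57BL/6N eggs, and spleen cells positive for CD45, the surface protein shared by leukocytes, were loaded. The WT group carried unmodified STAT5B. The Y665H group carried histidine in place of the tyrosine that the name Y665H points to, introduced by an adenine base editor in fertilized eggs, and the spleen labels do not say whether 1 or both alleles were changed. A spleen library of a second variant at the same residue, Y665F, is given side by side and shares the WT control, so it is no independent comparison. Cells of several mice were pooled into 1 library per genotype. No test between genotypes is therefore possible, the spread between mice was not measured, and genotype, animal, preparation and library cannot be told apart. Every difference below is a difference between these libraries. Intervals in square or round brackets are exact 95% intervals that cover counting error only.

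STAT5B is a transcription factor that is phosphorylated by JAK kinases after cytokines bind, pairs up, enters the nucleus and turns on genes such as Cish, Socs2, Bcl2 and Il2ra. Interleukins 2, 7 and 15, which signal through the common gamma chain, act through STAT5 to keep T cells, regulatory T cells and natural killer (NK) cells alive and to set their effector state. In myeloid cells STAT5 is downstream of GM-CSF, and in erythroid precursors it is downstream of erythropoietin. The residue changed in Y665H lies in the SH2 domain, the part of the protein that binds phosphotyrosine and holds the STAT pair together.

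The edited site is shown to place the variant in the gene. Stat5b lies on the minus strand of chromosome 11 at chr11:100780731-100850724 (GRCm38, mm10, GENCODE vM21 annotation), and the codon of this tyrosine is in exon 16 of the 19 exons of transcript Stat5b-201, at chr11:100787291-100787293. The first line below is the guide used to make the Y665H mice at chr11:100787287-100787309 on the plus strand, with its PAM in capitals. The second is the reference transcript at chr11:100787279-100787305 on the minus strand, with the tyrosine codon in capitals.
Y665H guide: tgaggtaattcaggtcccccAGG
Stat5b reference: ggggacctgaatTACctcatatatgtg
The first base of that codon pairs with position 7 of the guide, counted from 1 at the guide's 5′ end, and an A-to-G change there turns the codon into one for histidine. The count tables do not hold the edited base, so the genotype of the Y665H library could not be checked in them. The level of Stat5b RNA was near that of WT in the lymphoid classes. In CD8 T cells Stat5b stood at 57.1 UMIs per 1000000 UMIs of the class (CPM) in WT and 55.1 in Y665H, a log2 ratio of -0.05 [-0.23 to 0.12]. In conventional CD4 T cells the values were 91.5 and 90.6 CPM, and in NK cells 50.07 and 49.997 CPM. In neutrophils they were 162 and 121 CPM (log2 ratio -0.42 [-0.88 to 0.07]). Stat5a, the paralog of Stat5b, stood at 41.1 CPM in WT regulatory T cells and 24.5 CPM in Y665H ones (log2 ratio -0.75 [-1.47 to -0.06]).

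The libraries were of similar depth. They held 40480676 UMIs in 7020 barcodes for WT and 47206322 UMIs in 8212 barcodes for Y665H, with a median of 5392 and 5046 UMIs per barcode, and the libraries shared 12 barcodes. Marker lists, which hold the gate genes too, so that the gates fixed part of this check, were high in the classes named for them: all 12 genes of the regulatory T cell list, all 9 of the NK list, all 7 of the B list and all 10 of the neutrophil list stood at least 2-fold above the other cells in both libraries. Only the 3 WT cells gated as erythroid fell well short, with 9 of 12 erythroid markers above that mark and the other 3 at 0. Some pairs of lineage gates were allowed in 1 cell, and cells past both the T and the NK gate form the class of T cells with NK genes. Cells that passed any other combination of lineage gates made up 2.00% of filtered cells in WT (137 of 6866) and 4.05% in Y665H (325 of 8018). After doublet removal 0.417% and 1.255% remained and were set aside.

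The Y665H spleen library held a larger share of neutrophils and of rare myeloid and erythroid cells and a smaller share of CD8 T cells. Neutrophils, short-lived phagocytes that are scarce in a healthy spleen, made up 1.41% of WT cells (91 cells, interval 1.14 to 1.73) and 7.73% of Y665H cells (572 cells, 7.13 to 8.37), a ratio of 5.48 (4.39 to 6.92). The Y665F library lay between them with 4.89%. Monocytes went from 0.294% (19 cells) to 0.771% (57 cells), a ratio of 2.62 (1.53 to 4.66). Cells with hemoglobin genes at the level of erythroid cells numbered 3 in WT, 39 in Y665H and 1 in Y665F, and the Y665H share was 0.527% against 0.0465%, a ratio of 11.3 (3.61 to 57.4). The larger erythroid share was thus seen in the Y665H library and not in the Y665F library. Type 2 conventional dendritic cells numbered 9 and 25 (ratio 2.42, 1.09 to 5.90), but 4 and 8 at 2000 UMIs per cell (ratio 1.74, 0.466 to 7.89). The interval of the ratio reached 1 at the cells' own depth for type 1 dendritic cells (16 and 28 cells, ratio 1.53, 0.798 to 3.02) and for basophils (6 and 18 cells, ratio 2.62, 0.995 to 8.05).

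Among lymphocytes, the share of CD8 T cells was lower in Y665H and that of B cells higher. CD8 T cells made up 23.6% of WT cells (1521 cells) and 16.2% of Y665H cells (1198 cells), a ratio of 0.687 (0.636 to 0.742), whereas Y665F had 33.7%. Conventional CD4 T cells, which had Cd4 and no Foxp3 UMI, made up 22.7% in WT and 22.6% in Y665H (ratio 0.994, 0.926 to 1.07). Regulatory T cells, which carry the lineage factor Foxp3, were at 3.55% and 2.69% (ratio 0.758, 0.624 to 0.921) and NK cells at 4.96% and 4.002% (ratio 0.807, 0.687 to 0.948). T cells with an NK gene signature in the gate were at 1.64% and 0.946% (ratio 0.576, 0.420 to 0.786). B cells were at 25.4% and 29.0% (ratio 1.14, 1.07 to 1.22). The interval of gamma-delta T cells (1.12% and 0.892%, ratio 0.7997, 0.564 to 1.13) and that of plasma cells (0.542% and 0.771%, ratio 1.42, 0.917 to 2.23) held 1.

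**Figure D1:**
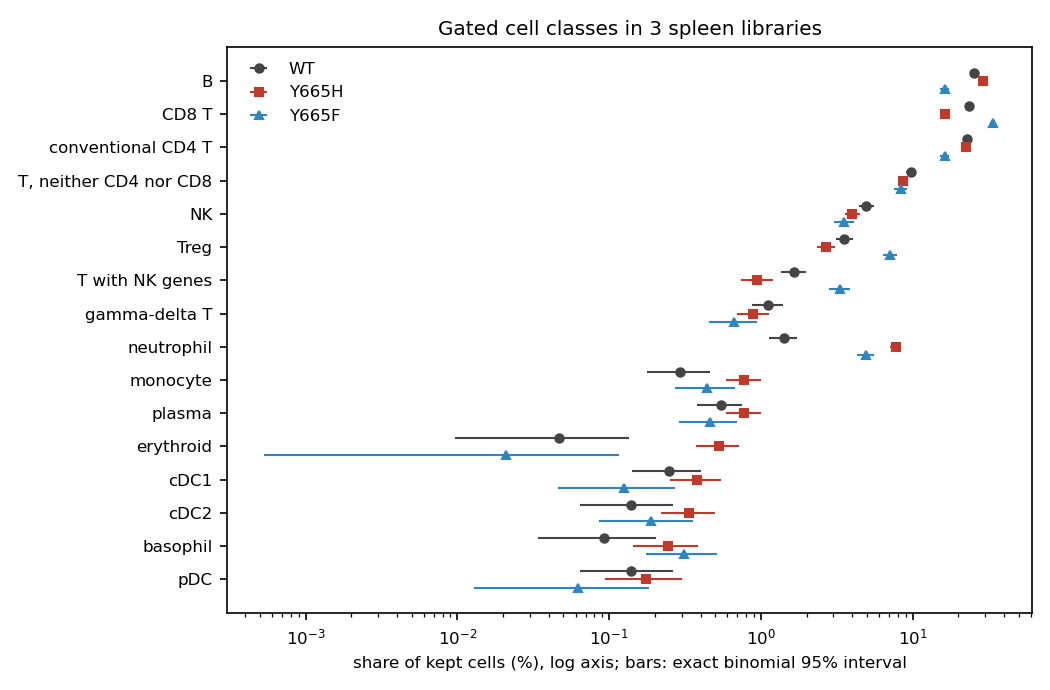
Share of each gated cell class in percent of kept cells (log axis) in the WT, Y665H and Y665F spleen libraries, with exact binomial 95% intervals for 1 pooled library each. Neutrophils stand at 1.41% in WT and 7.73% in Y665H, and CD8 T cells at 23.6% and 16.2%.

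Shares of one sum depend on one another, and a larger share of neutrophils and erythroid cells by itself lowers every other share. With neutrophils, erythroid cells and platelets left out (6356 WT and 6784 Y665H cells), the CD8 T cell ratio was 0.738 (0.684 to 0.797), that of regulatory T cells 0.814 (0.670 to 0.989) and that of B cells 1.23 (1.15 to 1.31). The NK interval then reached 1 (0.867, 0.737 to 1.02). Within T cells (4059 and 3879), CD8 T cells went from 37.5% to 30.9% (ratio 0.824, 0.763 to 0.890) and conventional CD4 T cells from 36.1% to 43.1% (1.19, 1.11 to 1.28), whereas the ratio of regulatory T cells was 0.909 (0.748 to 1.10). After every cell was thinned to 2000 UMIs and gated again, neutrophils stood at 1.33% and 7.21% and CD8 T cells at 11.3% and 7.23%. The regulatory T cell shares were then 1.56% and 1.40% (ratio 0.896, 0.671 to 1.20), so the difference in regulatory T cells was not detectable at equal depth.

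Free RNA of neutrophils and red cells was present in every class and was higher in Y665H. Droplets catch RNA that leaks from other cells, so transcripts such as S100a8 and S100a9, which neutrophils make in very large amounts, and the hemoglobin genes turn up in cells that do not make them. The summed level of 10 neutrophil granule and cytosol genes was 32.6 CPM in WT and 385 in Y665H CD8 T cells, a ratio of 11.8 (10.6 to 13.2). It was 59.2 and 462 CPM in B cells (ratio 7.81) and 38.7 and 417 CPM in NK cells (ratio 10.8). In CD8 T, conventional CD4 T, regulatory T, B and NK cells these levels were from 0.159% to 0.190% of the level in neutrophils themselves in Y665H, and from 0.0174% to 0.0377% in WT. The 39 Y665H erythroid cells had a higher level, 0.360% of that in neutrophils. In the mix of genes, S100a8 made up 33.9% of the list's UMIs in Y665H neutrophils and from 30.1% to 31.6% in those 5 Y665H classes. The WT mix was not that of neutrophils alone, since Wfdc21 made up 36.1% of the list in WT B cells.

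Hemoglobin RNA followed the erythroid cells. The sum of 4 hemoglobin genes was 11.7 CPM in WT CD8 T cells, 177 in Y665H and 1.75 in Y665F, and in B cells it was 17.0, 200 and 9.53 CPM. Of the WT B cell sum 62 of 115 UMIs were Hbb-bt, whose ratio of Y665H to WT there was 3.35 (2.53 to 4.49), whereas that of Hbb-bs was 18.9 (13.7 to 26.9). A UMI of S100a8 was found in 4.33% of WT B cells and 41.9% of Y665H B cells (2.52% and 24.3% after thinning to 2000 UMIs; median depth 3891.5 and 3874 UMIs), and one of Hbb-bs in 2.26% and 34.4% (1.32% and 19.0% thinned). B cells make neither transcript, so these shares are background. For this reason a gene whose level in a class was under 10% of its level in another class was counted apart and is not named by size in that class, but is given where it belongs to a fixed list, and immunoglobulin, T cell receptor, hemoglobin, mitochondrial, ribosomal protein and sex-linked genes were also counted apart.

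**Figure D2:**
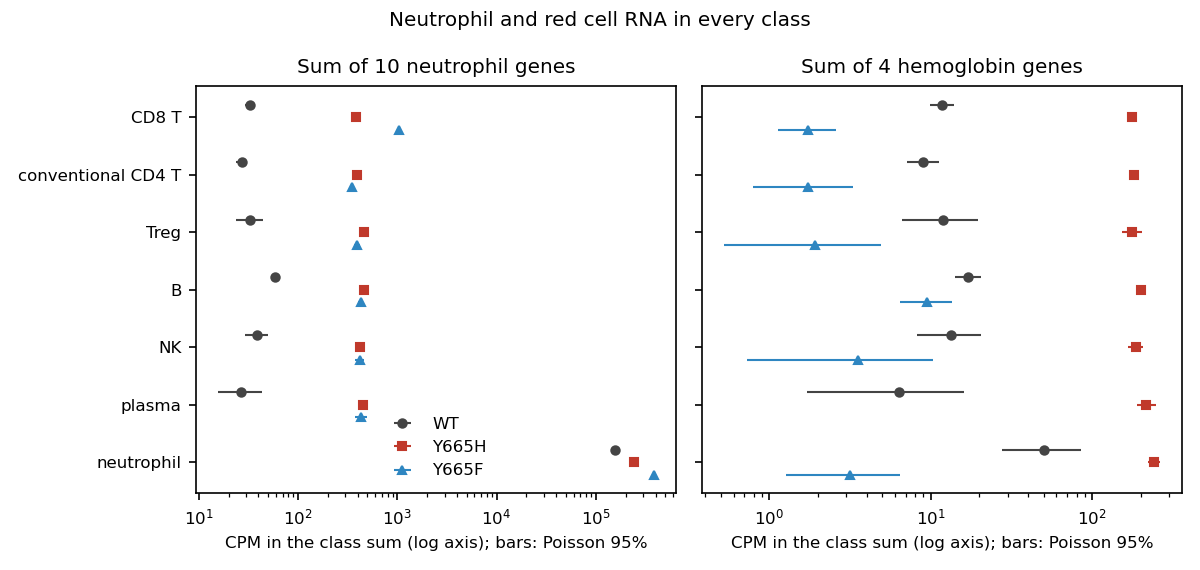
Summed CPM (log axis) of 10 neutrophil genes and of 4 hemoglobin genes in each cell class of the 3 spleen libraries. Neutrophil transcripts in CD8 T cells stand at 32.6 CPM in WT and 385 in Y665H, and hemoglobin transcripts at 11.7 and 177 CPM.

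Counted by the ratio alone, genes past a 2-fold difference were few in the lymphoid classes and far more frequent in neutrophils. The rule took genes with at least 50 UMIs in the higher of the class sums and a log2 CPM ratio of 1 or more either way. In CD8 T cells 34 genes were past 2-fold higher and 16 lower of 9082 (0.374% and 0.176%, or 0.551% either way), in conventional CD4 T cells 73 and 5 of 9022 (0.809% and 0.0554%, or 0.865%), and in regulatory T cells 32 and 6 of 3916 (0.817% and 0.153%, or 0.97%). B cells had 32 and 7 of 8826 (0.363% and 0.0793%, or 0.442%) and NK cells 16 and 9 of 5068 (0.316% and 0.178%, or 0.493%). In neutrophils 220 genes were higher and 103 lower of 4136 (5.32% and 2.49%, or 7.81%), in sums that rested on 91 WT cells. Most of these neutrophil ratios were not past 2-fold beyond counting error. The whole interval was past 2-fold for 27 higher and 6 lower genes there, and for 23 and 4 in CD8 T cells. The numbers were 43 and 0 in conventional CD4 T, 10 and 0 in regulatory T, 22 and 2 in B and 7 and 2 in NK cells. The higher genes were 68.1% of those past 2-fold in neutrophils with CPM, 92.2% with TMM scaling and 85.7% with totals free of neutrophil, erythroid, immunoglobulin and mitochondrial genes. When cells took the class of their Leiden cluster, 225 genes rather than 50 were past 2-fold in CD8 T cells. Of the 34 higher genes of CD8 T cells 21 had under 10% of their level in another class and 7 more were immunoglobulin, receptor, hemoglobin or other genes counted apart, and in B cells the numbers were 17 and 9 of 32. These groups took a smaller part of the higher genes in the other classes, which left 40 of 73 in conventional CD4 T cells, 25 of 32 in regulatory T cells and 11 of 16 in NK cells.

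Gene lists were drawn up from textbook roles and are described by counts of members with at least 20 UMIs, beside the same count over all genes with 20 UMIs. Over all genes the share past 2-fold was 0.915% higher and 0.717% lower in CD8 T cells, 1.88% and 0.511% in conventional CD4 T cells, 2.25% and 0.973% in regulatory T cells, 1.3% and 1.31% in NK cells, 0.994% and 0.415% in B cells and 8.16% and 5.48% in neutrophils.

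Direct STAT5 target genes did not pass 2-fold as a group in any of the large lymphoid classes, but several well-known members stood below WT in CD4, regulatory and NK cells. Of the STAT5 target list 0 of 19 members were past 2-fold in CD8 T cells (median log2 ratio 0.16), 0 of 20 in conventional CD4 T cells (0.12), 0 of 17 in regulatory T cells (-0.07) and 0 of 16 in B cells, and 1 of 17 in NK cells. Bcl2, which blocks mitochondrial cell death downstream of interleukins 7 and 15, stood at 327 CPM in WT conventional CD4 T cells, 221 in Y665H and 832 in Y665F. Its Y665H over WT log2 ratio there was -0.57 [-0.65 to -0.48]. The share of these cells with a Bcl2 UMI was 62.5% in WT and 51.4% in Y665H, and 36.2% and 26.1% at 2000 UMIs per cell, where neutrophils, at a median depth of 2891 and 3139 UMIs, had a Bcl2 UMI in 1.10% and 1.57% of cells at their own depth.

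NK, regulatory T and CD8 T cells and T cells gated as neither CD4 nor CD8 showed the same order of Bcl2 levels, with Y665H lowest and Y665F highest. Bcl2 stood at 402, 280 and 1005 CPM in NK cells of WT, Y665H and Y665F (Y665H over WT -0.53 [-0.70 to -0.35] on the log2 scale) and at 433, 295 and 559 CPM in regulatory T cells (-0.55 [-0.75 to -0.35]). In CD8 T cells the levels were 387, 338 and 1037 CPM, and the Y665H over WT ratio was nearer to no change (-0.19 [-0.26 to -0.13]). In T cells with neither CD4 nor CD8 UMIs enough for the gates they were 334, 259 and 882 CPM (-0.36 [-0.49 to -0.24]). B cells, which had 159, 163 and 144 CPM, and gamma-delta T cells, which had 370 CPM in WT and 367 in Y665H, did not show it. The Bcl2 difference was therefore smaller than 2-fold in each class named here, and larger than counting error in each but B and gamma-delta T cells.

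Il2ra, the high-affinity interleukin 2 receptor chain and itself a STAT5 target, stood at 424 CPM in WT regulatory T cells, 285 in Y665H and 495 in Y665F (Y665H over WT -0.57 [-0.78 to -0.37] on the log2 scale). An Il2ra UMI was found in 62.4% and 48.2% of regulatory T cells (45.4% and 37.0% at 2000 UMIs; median depth 5180 and 5026) against 1.04% and 1.02% of B cells. Cish, a feedback inhibitor induced by STAT5, stood at 158, 117 and 286 CPM in regulatory T cells (-0.43 [-0.76 to -0.11]) and at 19.1, 14.3 and 97.6 CPM in conventional CD4 T cells. Socs2, another feedback inhibitor, had 20 UMIs in WT NK cells and 3 in Y665H (12.7, 1.81 and, in Y665F, 93.3 CPM), a log2 ratio of -2.81 [-5.20 to -1.06]. In CD8 T cells Cish did not follow this order against WT: it stood at 5.65 CPM in WT and 6.80 in Y665H, and at 20.7 in Y665F. Among the other members, Socs3, which is induced by STAT3 as well as STAT5, was higher in Y665H, at 29.9 and 51.3 CPM in conventional CD4 T cells (0.78 [0.56 to 1.002]) and 30.9 and 45.5 CPM in CD8 T cells (0.56 [0.35 to 0.77]).

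Most members of the common gamma chain receptor list stayed within 2-fold of WT. Besides Il2ra in regulatory T cells, described above, Il7r in NK cells was below WT beyond counting error. Il7r, the interleukin 7 receptor chain that keeps naive T cells alive, stood at 821 CPM in WT and 829 in Y665H CD8 T cells (log2 ratio 0.01) and at 717 and 708 CPM in conventional CD4 T cells. In NK cells it stood at 136 CPM in WT and 86.7 in Y665H (-0.64 [-0.96 to -0.33]). Il2rb, the chain shared by the receptors for interleukins 2 and 15, stood at 150 and 151 CPM in CD8 T cells and 1001 and 1176 CPM in NK cells. Of the common gamma chain receptor list 0 of 8 members passed 2-fold in CD8 T cells and 1 of 9 in conventional CD4 T cells, namely Il9r with 0.804 and 3.50 CPM (2.12). None of 11 JAK and STAT genes passed it in either class.

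**Figure D3:**
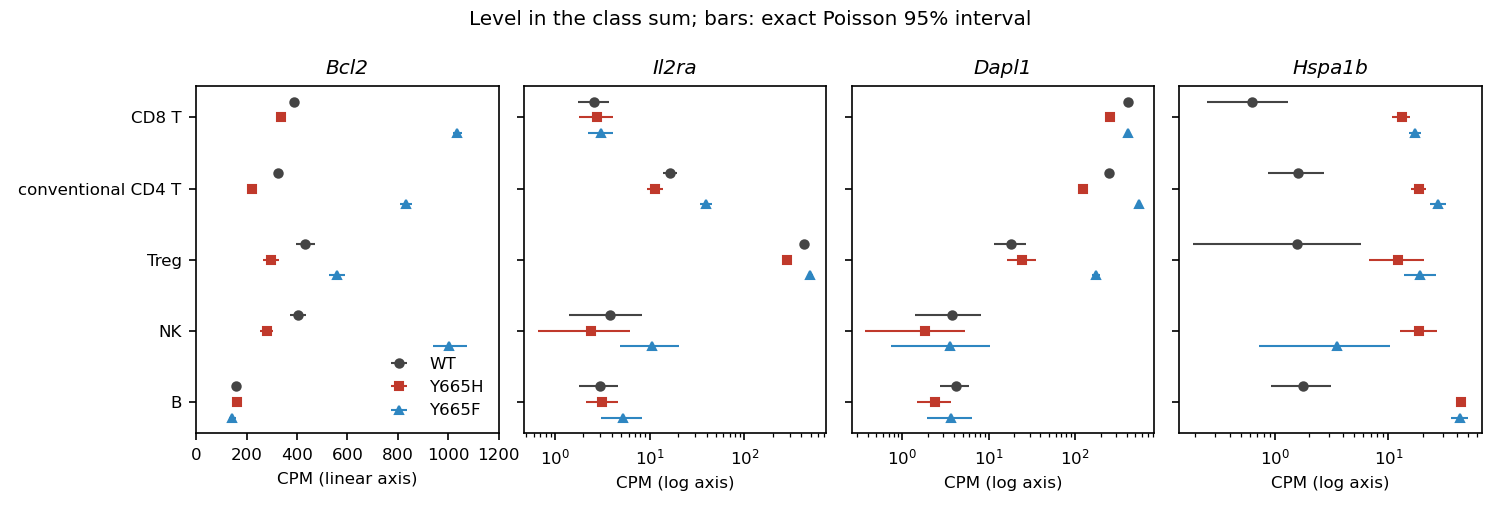
Level of Bcl2 (CPM, linear axis from 0) and of Il2ra, Dapl1 and Hspa1b (CPM, log axes) in 5 lymphoid classes of the WT, Y665H and Y665F libraries, with exact Poisson 95% intervals of the UMI sums and values of 0 not drawn. Bcl2 is lowest in Y665H and highest in Y665F in conventional CD4 T, regulatory T, CD8 T and NK cells, and lies between 144 and 163 CPM in B cells of the 3 libraries.

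In CD8 T cells 5 of 15 NK maturation genes were past 2-fold lower and 1 higher, 2 of 16 memory and effector genes lower and 1 higher, and 1 of 13 cytotoxic genes each way. The lower ones were Gzma, Zeb2, Cx3cr1, Klrg1 and S1pr5, some of them in several lists, and the higher ones Xcl1 and Ly6a. The medians of the memory and effector list (0.16) and the cytotoxic list (0.21) were above 0. The naive list had 0 of 12 members past 2-fold (median log2 ratio -0.06): Lef1, a transcription factor of naive cells, stood at 629 CPM in WT and 609 in Y665H, and Tcf7, another, at 534 and 561 CPM. Gzma, which encodes granzyme A of cytotoxic granules, stood at 73.8 CPM in WT, 20.2 in Y665H and 83.0 in Y665F (Y665H over WT -1.87 [-2.11 to -1.64]). Zeb2, a transcription factor of terminal effector cells, stood at 16.9, 6.80 and 31.6 CPM (-1.31 [-1.75 to -0.89]), and Cx3cr1, a chemokine receptor of the same cells, at 14.7, 4.68 and 15.4 CPM (-1.65 [-2.18 to -1.16]). Klrg1, an inhibitory receptor of terminal effector cells, stood at 3.86 and 1.34 CPM (-1.53 [-2.59 to -0.58]) and S1pr5, a receptor for exit from tissue, at 3.05 and 1.11 CPM (-1.45). These 5 genes fall under the rule for genes of another class and are given as list members only: all 5 have levels over 10 times as high in NK cells or in T cells with NK genes, whose shares were lower in Y665H, and the part that RNA of those cells plays was not tested. Gzma in B cells, which do not make it, stood at 13.2 CPM in WT and 9.73 in Y665H.

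The same genes were therefore followed in CD8 T cells that carried at least 10 UMIs of Ccl5, a chemokine of memory and effector cells. Such cells made up 13.7% of CD8 T cells in WT (208 of 1521) and 13.2% in Y665H (158 of 1198), against 53.7% in Y665F and 1 of 1640 WT and 0 of 2148 Y665H B cells. At 2000 UMIs per cell, with a cut of 5 UMIs, the shares were 12.8% and 8.30%, a ratio of 0.649 (0.441 to 0.944), in a CD8 T class that was itself gated again (704 and 518 cells), so the shares were close at the cells' own depth and differed with that depth, cut and gating together. Inside this subset Gzma stood at 387 CPM in WT, 83.3 in Y665H and 141 in Y665F (Y665H over WT -2.22 [-2.51 to -1.93]), Zeb2 at 87.0, 22.5 and 55.2 CPM (-1.95 [-2.56 to -1.39]) and Cx3cr1 at 91.0, 30.4 and 27.1 CPM (-1.58 [-2.11 to -1.08]). Gzma fell under the rule for genes of another class in this subset too. Klrg1 stood at 23.5 and 8.69 CPM (-1.43) and S1pr5 at 18.3 and 7.25 CPM (-1.34). Eomes, a transcription factor of memory CD8 T cells, stood at 135 and 138 CPM, and Bcl2 at 519, 464 and 1122 CPM. In this subset 11 of 4446 genes were past 2-fold higher and 14 lower (0.562%). Klra3, an inhibitory NK receptor gene (6.87 and 37.7 CPM, 2.46), the chemokine gene Ccl4 (32.1 and 90.6 CPM, 1.498, with 48.8% of the Y665H UMIs in 1 cell) and Serpina3g, a protease inhibitor gene (11.4 and 36.2 CPM, 1.66), were among the higher ones. Lower ones besides Zeb2 and Cx3cr1 were Myb (52.7, 16.7 and 25.7 CPM, -1.66 [-2.39 to -0.99]), Nop9 (-1.63) and Dapl1 (113, 55.8 and 214 CPM, -1.02). The Cx3cr1 UMIs lay in 34 WT cells and 13 Y665H cells and those of Myb in 44 and 12, so few cells carry these differences.

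T cells with NK genes, 106 in WT and 70 in Y665H, had lower levels of 4 of the same genes in Y665H. The class was under the minimum of 100 cells, so these genes were named after their values were seen. Klrg1 stood at 104 CPM in WT and 11.9 in Y665H (log2 ratio -3.12 [-4.62 to -1.92]), S1pr5 at 94.0 and 23.9 CPM (-1.98), Cx3cr1 at 240 and 87.5 CPM (-1.46) and Zeb2 at 400 and 167 CPM (-1.26 [-1.64 to -0.90]). In this class 16 genes were past 2-fold each way of 2047 (1.56%), and 5 of 16 members of the NK maturation list were lower beside 3.38% of all genes at that minimum. Tyrobp, an adaptor of activating NK receptors, was higher, at 243 CPM in WT, 587 in Y665H and 172 in Y665F (1.27).

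Of the CD8 T cell genes named by size, 6 were higher and the largest ratio among them belonged to a heat shock gene. Hspa1b, which encodes an inducible HSP70 chaperone, stood at 0.628 CPM in WT, 13.04 in Y665H and 17.1 in Y665F (Y665H over WT 4.38 [3.29 to 5.72]). Ly6a, which encodes the activation antigen Sca-1, stood at 49.0, 101 and 39.6 CPM (1.05 [0.89 to 1.20]). Xcl1, a chemokine that draws type 1 dendritic cells, stood at 19.0, 59.5 and 19.6 CPM (1.65 [1.41 to 1.88]), but 36.9% of its Y665H UMIs lay in 1 cell. Its log2 ratio was 1.27 when the cell with most of its UMIs was left out in each library, which in WT held 18.4% of them. Leaving out the Y665H cell alone was not run. The ratio was 0.07 when each cell took the class of its Leiden cluster. Chst11, a sulfotransferase, stood at 5.29 and 11.5 CPM (1.12), Gadd45g, a stress and cytokine response gene, at 3.41 and 7.91 CPM (1.22) and Asap2 at 3.59 and 7.58 CPM (1.08). Ly6a was above WT in other T cells as well, at 193 and 274 CPM in conventional CD4 T cells (0.50) and 165 and 292 CPM in regulatory T cells (0.82 [0.57 to 1.08]), but at 224 and 249 CPM in B cells (0.15).

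The genes named as lower in CD8 T cells had low levels. Gm30948 had 145 UMIs in WT, 40 in Y665H and 43 in Y665F (-1.54 [-2.09 to -1.03]). Tns1, which encodes tensin 1, stood at 4.93 and 1.78 CPM (-1.47), Fchsd1 at 5.56 and 2.12 CPM (-1.39) and Fam177a at 9.15 and 4.12 CPM (-1.15). Sorcs2, Gm15446, Nqo2, Ildr1, Ksr2 and Klf9 had log2 ratios from -1.27 to -1.01. Klf9, a factor that responds to glucocorticoids, stood at 5.83 and 2.90 CPM in WT and Y665H and at 15.1 CPM in Y665F. Dapl1, a gene of quiescent naive T cells, stood at 417 CPM in WT, 256 in Y665H and 414 in Y665F, and its Y665H over WT log2 ratio of -0.71 [-0.78 to -0.63] was short of 2-fold. Its UMIs were found in 54.6% and 43.2% of CD8 T cells (35.4% and 30.3% at 2000 UMIs; median depth 6913 and 7061.5) against 1.52% and 0.931% of B cells.

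Among the lists, granule genes of neutrophils had 9 of 11 members past 2-fold higher in CD8 T cells (median 3.53), and these are the neutrophil transcripts found in every class. B cell markers were also above WT there, 7 of 7 with a ratio above 1, from a sum of 54.3 to 77.9 CPM, and so were 7 of 8 MHC class II genes. The part that RNA of these other cells plays in the other differences was not tested. Of 17 interferon-induced genes, 15 immediate early genes, 12 BCL2 family genes and 17 cell cycle genes, 0 passed 2-fold in CD8 T cells.

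Conventional CD4 T cells of Y665H had more RNA of cell division genes, carried by few cells, and less of Dapl1. Mki67, a marker of dividing cells, stood at 11.7 CPM in WT, 39.6 in Y665H and 25.02 in Y665F (Y665H over WT 1.76 [1.44 to 2.09]). Ube2c, Ccna2 and Rrm2, which act in mitosis, in cyclin-dependent kinase control and in nucleotide synthesis, had log2 ratios of 2.74, 2.87 and 2.45, and the histone genes Hist1h2ap, Hist1h3c and Hist1h2ae ratios of 1.77, 2.04 and 1.63. Of the cell cycle list 12 of 18 members were past 2-fold higher (median 1.68). Cells with at least 3 UMIs over 11 division genes numbered 16 of 1466 in WT (1.09%) and 29 of 1670 in Y665H (1.74%), a ratio of 1.59 (0.836 to 3.14). Without those cells 0 of 10 list members passed 2-fold and the number of genes past it went from 78 to 50 (0.562% of 8903).

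The other named genes of conventional CD4 T cells were heat shock genes, an interferon-induced chemokine and Dapl1. Hspa1b stood at 1.61 CPM in WT, 18.5 in Y665H and 27.3 in Y665F (Y665H over WT 3.52), and Hspa1a, its near-identical neighbour, at 0.345 CPM from 3 UMIs in WT and 8.64 in Y665H (4.65 [3.05 to 6.95]). Reads can be split between these copies. Cxcl10, a chemokine induced by interferon gamma, stood at 0.804 CPM in WT, 5.55 in Y665H and 0.770 in Y665F (2.79 [1.65 to 4.17]), in 4 and 19 cells. Dapl1 stood at 251 CPM in WT, 126 in Y665H and 559 in Y665F (-1.001 [-1.10 to -0.90]), in 584 and 397 cells. A Dapl1 UMI was found in 39.8% and 23.8% of these cells, and in 21.4% and 12.1% at 2000 UMIs. Rad9b, a checkpoint clamp gene, stood at 11.3 and 4.73 CPM (-1.25), Kctd4 at 6.78 and 3.09 CPM (-1.14), and Gm46218 had a ratio of -1.24.

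Of the checkpoint list 1 of 7 members passed 2-fold and of the helper lineage list 1 of 9, both higher in Y665H, beside 1.88% of all genes. The checkpoint gene was Pdcd1, the inhibitory receptor PD-1, which stood at 5.40 CPM in WT, 13.3 in Y665H and 13.1 in Y665F (Y665H over WT 1.30 [0.80 to 1.81]). The helper gene was the follicular helper cytokine Il21 (1.49 and 3.50 CPM, 1.23). Among single members of other lists past 2-fold were the chemokine receptor gene Ccr4 (3.45 and 8.33 CPM, 1.27) and the integrin gene Itgae (1.72 and 4.52 CPM, 1.39), whereas Cxcr5, the follicular homing receptor, stood short of it at 10.7, 19.4 and 7.31 CPM (0.86 [0.50 to 1.24]). The naive list had 11 of 12 members below WT but only Dapl1 past 2-fold, and Tcf7 went the other way, at 687 and 792 CPM (0.21). Interferon-induced genes had 2 of 18 members past 2-fold, both lower, namely Rsad2 (6.78 and 3.09 CPM, -1.14) and Ifi44 (5.52 and 1.65 CPM, -1.75).

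Regulatory T cells of Y665H kept the level of Foxp3 and of most identity genes. Foxp3, whose UMIs were the gate, stood at 472 CPM in WT, 460 in Y665H and 472 in Y665F and is given as a description. Ctla4, the inhibitory receptor of these cells, stood at 140 and 178 CPM (0.35), Ikzf2, which encodes Helios, at 985 and 1229 CPM (0.32) and Icos, a costimulatory receptor, at 134 and 188 CPM (0.49). Of the identity list 0 of 12 members passed 2-fold, 9 were above WT, and Il2ra, described above, was below. Pdcd1 stood at 12.6 and 33.2 CPM (1.39), and Pdcd1 and Cd160 were the 2 of 6 checkpoint genes past 2-fold.

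The genes named by size in regulatory T cells rested on few cells for the most part. Ttn, which encodes the muscle protein titin and is also transcribed in T cells, stood at 52.9 CPM in WT, 301 in Y665H and 61.6 in Y665F (Y665H over WT 2.51 [2.12 to 2.91]), in 28 WT and 56 Y665H cells. Penk, which encodes the enkephalin precursor, stood at 22.9, 135 and 6.21 CPM (2.55), in 8 and 15 cells, with 41.6% of the Y665H UMIs in 1 cell. The division genes Hist1h1b, Pclaf and Hist1h2ap had ratios of 2.41, 2.55 and 1.59, and Pclaf was found in 3 and 6 cells. Cells over the division gate numbered 7 of 229 (3.06%) and 13 of 199 (6.53%), a ratio of 2.14 (0.792 to 6.33), and without them 22 genes rather than 38 were past 2-fold (0.607% of 3626). Among lower genes, AC149090.1 stood at 145, 61.2 and 131 CPM (-1.24 [-1.66 to -0.84]), in 111 and 54 cells. Dph5, an enzyme of diphthamide synthesis, stood at 64.0 and 31.5 CPM (-1.02), Acss2, an acetyl-CoA synthetase, at 42.7 and 20.1 CPM (-1.09), 2410002F23Rik at 44.2 and 16.6 CPM (-1.41), and 5430405H02Rik had a ratio of -1.27.

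NK cells of Y665H had less RNA of Ly6c2 and Fcgr2b and more of Myb, while the NK maturation list had 0 of 18 members past 2-fold, with 9 above and 9 below WT. Ly6c2, an antigen that NK cells gain late, stood at 291 CPM in WT, 119 in Y665H and 217 in Y665F (Y665H over WT -1.29 [-1.54 to -1.05]). Its UMIs were found in 96 of 320 WT cells and 54 of 296 Y665H cells, or 18.2% (25.9% and 11.7% at 2000 UMIs; median depth 4665 and 5114.5), against 5% and 4.98% of B cells (2.08% and 2.96% thinned). Fcgr2b, an inhibitory Fc receptor, stood at 35.5, 7.83 and 33.1 CPM (-2.18 [-3.18 to -1.29]), in 45 and 12 cells. Below WT but short of 2-fold, Zeb2, which drives terminal NK maturation, stood at 728, 412 and 724 CPM (-0.82 [-0.96 to -0.68]), S1pr5 at 175, 112 and 152 CPM (-0.64 [-0.92 to -0.37]) and Klrg1 at 90.0, 56.0 and 228 CPM (-0.68). Myb, a transcription factor of progenitor and immature cells, was higher, at 38.0, 97.0 and 15.4 CPM (1.35 [0.91 to 1.80]), in 37 and 83 cells. Zeb2, Klrg1 and S1pr5 were thus below WT in NK cells, in T cells with NK genes and in Ccl5-high CD8 T cells, by less than 2-fold in NK cells and by more in the others. In conventional CD4 T cells, where its level is under 10% of that in NK cells, Zeb2 stood above WT (2.64 and 5.04 CPM, 0.93 [0.19 to 1.71]).

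The cytotoxic and lineage genes of NK cells stayed within 2-fold of WT, but all 9 NK markers were below it (median log2 ratio -0.21). Gzmb, the granzyme that triggers apoptosis, stood at 241 CPM in WT, 230 in Y665H and 1422 in Y665F, Prf1, which encodes perforin, at 877 and 1002 CPM (0.19), Gzma at a log2 ratio of -0.21 and Eomes, the lineage factor, at 539 and 505 CPM. The cytotoxic list had 0 of 13 members past 2-fold. Itgam and Cd27, which mark the late and the early stage, stood at 240 and 234 CPM and at 158 and 161 CPM. Other named genes were Stk39 (24.1 and 56.6 CPM, 1.23), Serpinb9b, an inhibitor of granzymes (35.5 and 73.5 CPM, 1.05), Gzf1 (12.7 and 30.7 CPM, 1.28), Capg, an actin-capping gene (15.2 and 33.7 CPM, 1.15) and Tusc3 (1.02). The lower ones were Khdc1a (89.4 and 42.2 CPM, -1.08), Mms19, an iron-sulfur assembly gene (49.4 and 21.7 CPM, -1.19), Tirap, a Toll-like receptor adaptor (33.0 and 13.9 CPM, -1.25), Gm10522, Mypopos, Clip4 and Ahcyl2.

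Division genes in NK cells rested on a handful of cells. Mki67 stood at 6.97 CPM in WT, 65.7 in Y665H and 220 in Y665F, in 11 and 20 cells, and Top2a, the mitotic topoisomerase, at 19.6 and 81.9 CPM. Cenpf, a kinetochore gene, had 0 UMIs in WT and 61 in Y665H, with 77.0% of the UMIs in 1 of 3 cells. Its ratio against a floor of 3 counts was 19.3, and its log2 interval began at 3.93. Cells over the division gate numbered 1 of 320 and 10 of 296, and 0 of 290 and 3 of 266 at 2000 UMIs. Without them Mki67 had a log2 ratio of 0.27, that of Top2a turned to -0.37, and 0 of 7 cell cycle members with 20 UMIs passed 2-fold.

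In B cells 6 genes higher and 6 lower were left without genes under 10% of their level in another class and the other genes counted apart. The lists of marginal zone genes (0 of 11), follicular genes (0 of 9), transitional genes (0 of 7), germinal center genes (0 of 5) and MHC class II genes (0 of 10) had no member past 2-fold. Cr2, the complement receptor of marginal zone cells, stood at 334 CPM in WT and 360 in Y665H, Fcer2a, the follicular marker CD23, at 496 and 466 CPM, and Ms4a1, which encodes CD20, at 1471 and 1472 CPM. Hspa1b stood at 1.78, 43.3 and 42.7 CPM in WT, Y665H and Y665F (Y665H over WT 4.61 [3.78 to 5.57]), in 11 WT and 201 Y665H cells, and Hspa1a at 0.445, 15.05 and 11.4 CPM. Sema7a, a membrane semaphorin, stood at 2.37 and 8.60 CPM (1.86 [1.07 to 2.74]), B3gnt7, a glycosyltransferase, at 3.26 and 10.1 CPM (1.63) and Crisp3 at 11.9, 2.49 and 17.8 CPM (-2.25 [-3.00 to -1.56]), in 58 and 19 cells. Hist1h2ap and Gm31597 were also higher, and Lockd (9.64 and 3.62 CPM, -1.41), Ica1l, Gm17227, Gm15446 and Gm47730 lower.

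**Figure D4:**
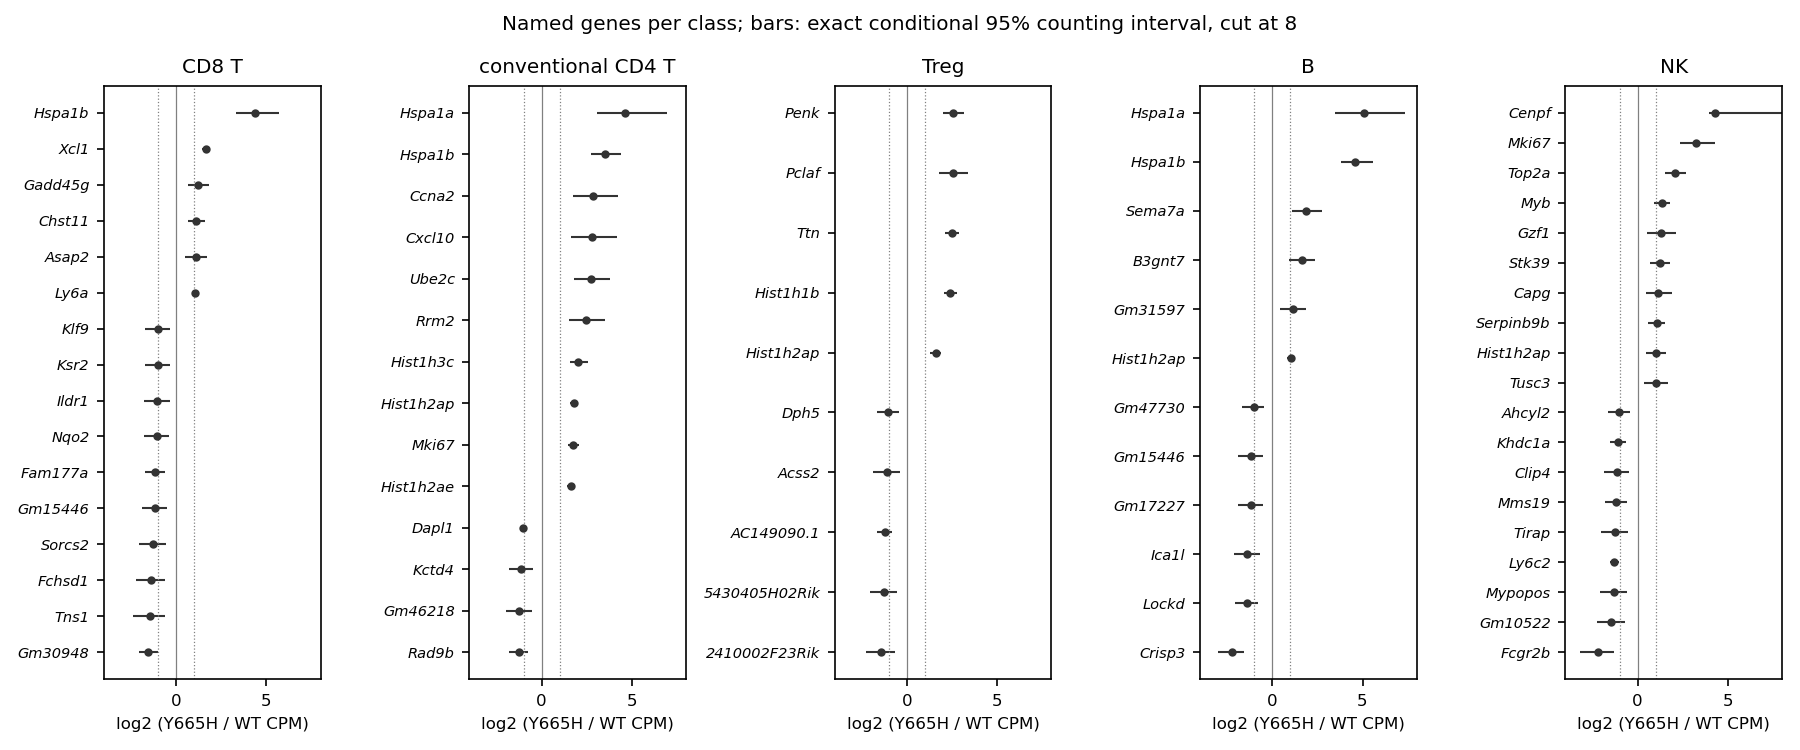
Log2 ratio of CPM, Y665H over WT, of the genes named by size in CD8 T, conventional CD4 T, regulatory T, B and NK cells, with exact conditional 95% intervals cut at 8 and dotted lines at 2-fold either way. Hspa1b lies at 4.38 in CD8 T cells, 3.52 in conventional CD4 T cells and 4.61 in B cells, and Cenpf in NK cells is drawn at its bound.

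Hspa1b was the one gene named by size as higher in CD8 T, conventional CD4 T and B cells alike. In NK cells it had 0 UMIs in WT and 31 in Y665H (18.7 CPM), under the minimum of 50 UMIs. Its level was at least as high in Y665F as in Y665H in CD8 and conventional CD4 T cells, so it set the WT library apart from both variant libraries. Heat shock genes respond to handling as well as to signalling, and the part of handling was not tested. Of the heat shock list 2 of 10 members passed 2-fold in CD8 T cells and 2 of 11 in conventional CD4 T cells, both times Hspa1a and Hspa1b.

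T cells with neither CD4 nor CD8 enough for the gates, 631 in WT and 642 in Y665H, showed Hspa1b, Xcl1 and Dapl1 again, beside genes not named above. In them 21 of 6741 genes were past 2-fold higher and 4 lower (0.312% and 0.0593%, or 0.371%). Hspa1b stood at 1.76 and 19.3 CPM, Xcl1 at 22.1, 83.3 and 10.3 CPM with 63.4% of the Y665H UMIs in 1 cell, and Dapl1 at 259, 142 and 473 CPM (-0.86). Furin, a protease induced by T cell activation, stood at 21.5 and 44.4 CPM (1.05) and Pim2, a survival kinase that STAT5 induces, at 17.4 and 34.7 CPM. Blm, a helicase, was higher as well (1.13), and Xpnpep1, Fam118b, Cnga1 and Gm43696 were lower, with ratios from -1.20 to -1.02.

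Gamma-delta T cells, 72 in WT and 66 in Y665H, and plasma cells, 35 and 57, were too few for the naming rule, and their genes were named after the values were seen. In gamma-delta T cells 23 of 1418 genes were past 2-fold (1.62%). S100a4, a calcium-binding protein of effector T cells, stood at 122 CPM in WT, 746 in Y665H and 550 in Y665F (Y665H over WT 2.61 [2.18 to 3.06]), in 15 WT and 17 Y665H cells. Lgals1, which encodes galectin 1, stood at 198 and 877 CPM (2.15) and S100a6 at 238 and 887 CPM (1.90). Maf, a transcription factor of gamma-delta cells that make interleukin 17, stood at 30.6 and 157 CPM (2.36), in 6 and 9 cells. Cd163l1, a receptor of such cells, stood at 44.7, 185 and 55.0 CPM (2.04), in 3 and 9 cells. Among NK maturation genes with at least 20 UMIs, Gzma, Cx3cr1 and Ccr2 were past 2-fold higher in this class and Xcl1 lower. Id3, a factor of other gamma-delta subsets, was lower, at 184 and 88.5 CPM (-1.05), with 40% of its Y665H UMIs in 1 cell. The phosphatase gene Ptpn6 was lower too, at 200 and 96.1 CPM (-1.06).

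The separate intervals of the heavy chain shares of plasma cells overlapped between the libraries, which does not show the shares to be equal. Igha was the leading heavy chain gene in 29 of 35 WT cells (82.9%, 66.4 to 93.4) and 35 of 57 Y665H cells (61.4%, 47.6 to 74.0), Ighm in 3 and 10, and Ighg1 in 0 and 6. Slpi, which encodes a protease inhibitor, stood at 219, 1860 and 599 CPM (3.08 [2.83 to 3.34]), in 13 and 32 cells, with 52.4% of the Y665H UMIs in 1 cell, and Ly6a at 164 and 432 CPM (1.40). Of 1878 genes 76 were past 2-fold (4.05%), a share that includes immunoglobulin genes.

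Neutrophils of Y665H had more RNA of granule genes, less of Ptgs2 and, in few cells, more of some cell division genes, with only 91 WT cells behind the WT level. These genes were named after their values were seen, since the class was under the minimum of 100 cells. Ngp, which encodes a protein of secondary granules made in the bone marrow stages, stood at 4246 CPM in WT, 14078 in Y665H and 32933 in Y665F (Y665H over WT 1.73 [1.65 to 1.81]). Camp, the cathelicidin precursor, had a ratio of 1.70, Lcn2, which encodes lipocalin 2, 1.72 (2064 and 6812 CPM, in 48 and 453 cells) and Ltf, which encodes lactoferrin, 1.65 (1429 and 4489 CPM). Of the granule list 5 of 13 members passed 2-fold higher, beside 8.16% of all genes. Other neutrophil genes were nearer to WT: S100a8, which encodes a calcium-binding protein of the cytosol, stood at 58002 and 82187 CPM (0.50), Mmp8 at 588 and 913 CPM (0.63), Mmp9 at 1537 and 1448 CPM (-0.09) and Cxcr2, the receptor with which mature neutrophils leave the marrow, at 2273 and 2155 CPM (-0.08).

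Few WT cells held Ngp or Camp, whereas Lcn2 was found in 48 of the 91 WT cells, though with 41.6% of its WT UMIs in 1 cell. Ngp was found in 5 WT and 129 Y665H cells, with 55.2% of the WT UMIs in 1 cell, and Camp in 3 and 107 cells. Neutrophils with at least 20 UMIs over Ngp, Camp and Ltf numbered 3 of 91 in WT (3.30%, 0.685 to 9.33), 58 of 572 in Y665H (10.1%, 7.79 to 12.9) and 159 of 234 in Y665F (67.9%), and no B cell of 1640 and 2148 reached that level. The ratio of Y665H to WT was 3.08 (1.002 to 15.3), 2.30 (0.737 to 11.6) at 2000 UMIs per cell and 1.93 (0.782 to 6.15) with doublets kept, when the WT share was 5 of 93. With doublets kept the log2 ratio of Ngp was 0.95 and that of Camp 0.79, both short of 2-fold. The larger share of granule-rich cells in Y665F was well outside the Y665H interval.

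Several division genes had 0 or 1 UMIs in WT neutrophils, and 10 of 15 cell cycle genes were past 2-fold higher in Y665H, beside 8.16% of all genes. The class sum held 2290449 UMIs in Y665H and 277197 in WT, so members could reach 20 UMIs through Y665H alone. The count is therefore a description only. The list summed to 1717 CPM in WT and 2590 in Y665H. Mki67 had 1 UMI in WT and 215 in Y665H (log2 ratio 4.70 [2.21 to 10.01]), or 3.61 and 93.9 CPM, beside 335 CPM in Y665F. Hist1h1b had 0 and 177 UMIs and Top2a 0 and 164 UMIs. Against a floor of 3 counts their ratios were 7.14 and 6.62, with log2 intervals that began at 2.52 and 2.41. The Y665H UMIs lay in 10 cells for Hist1h1b, 43.5% of them in 1 cell, in 7 cells for Top2a and in 26 for Mki67, of 572. Nucks1, Ube2c and Hist1h2ae were at 0 in WT, with ratios of 4.68, 3.99 and 3.95 against that floor. Fcnb, a ficolin of immature neutrophils, had 1 and 249 UMIs (4.91 [2.42 to 10.22]). Cells over the division gate were 0 of 91 in WT, which allows a share of up to 3.97% by its exact interval, 10 of 572 in Y665H (1.75%) and 17.5% of the Y665F neutrophils. At the depth of 91 WT cells a difference in the share of dividing cells was not detectable. Elane and Mpo, made at the promyelocyte stage, had 0 UMIs in neutrophils of both libraries. Prtn3 or Ctsg, granule genes of the same stage, or both were among the 13 of 16 granule list members with at least 20 UMIs. Genes of that stage were therefore not all absent.

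Of the immediate early list 2 of 15 members were past 2-fold lower in Y665H neutrophils (median -0.40), beside 5.48% of all genes. With TMM scaling the median of all genes moved from -0.12 to 0.14, and a shift of that size leaves Fosb, Nr4a1 and Cxcr4, given next, short of 2-fold. Ptgs2, which encodes the prostaglandin enzyme COX-2, stood at 707 CPM in WT, 233 in Y665H and 54.9 in Y665F (Y665H over WT -1.60 [-1.84 to -1.36], and -1.34 with TMM). Its UMIs were found in 42.9% and 26.6% of neutrophils (37.3% and 22.8% at 2000 UMIs) and in 0 B cells. Fosb and Nr4a1, the immediate early genes past 2-fold, stood at 267 and 117 CPM (-1.20) and 133 and 62.4 CPM (-1.10), whereas Fos (2450 and 2121 CPM, -0.21) and Junb (3084 and 2450 CPM, -0.33) did not reach 2-fold. Cxcr4, which returns aged neutrophils to the marrow, stood at 382, 188 and 104 CPM (-1.02). Pmaip1, a BH3-only death gene, stood at 108 and 35.4 CPM (-1.61), Herpud1, a stress gene of the endoplasmic reticulum, at 126 and 42.3 CPM (-1.58), Arl4c at 152 and 46.3 CPM and Stfa1 at 155 and 48.9 CPM, and Eif3a, Tasor and Gm34455 were lower too. Olfm4 was lower at 90.2 and 28.4 CPM, but all its WT UMIs lay in 1 cell. Gm42418, a transcript that overlaps ribosomal RNA, stood at 31537, 14921 and 33972 CPM. The granule list summed to 156964, 241206 and 380448 CPM, and shares of that size in the class sum move every other CPM in it. The STAT5 list had 1 of 9 members past 2-fold, Il18r1 from 3 WT UMIs (1.23 [-0.39 to 3.55]), with Pim1 at 736 and 685 CPM and Socs3 at 325 and 317 CPM, and Mcl1, on which neutrophil survival depends, stood at 2565 and 2165 CPM.

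**Figure D5:**
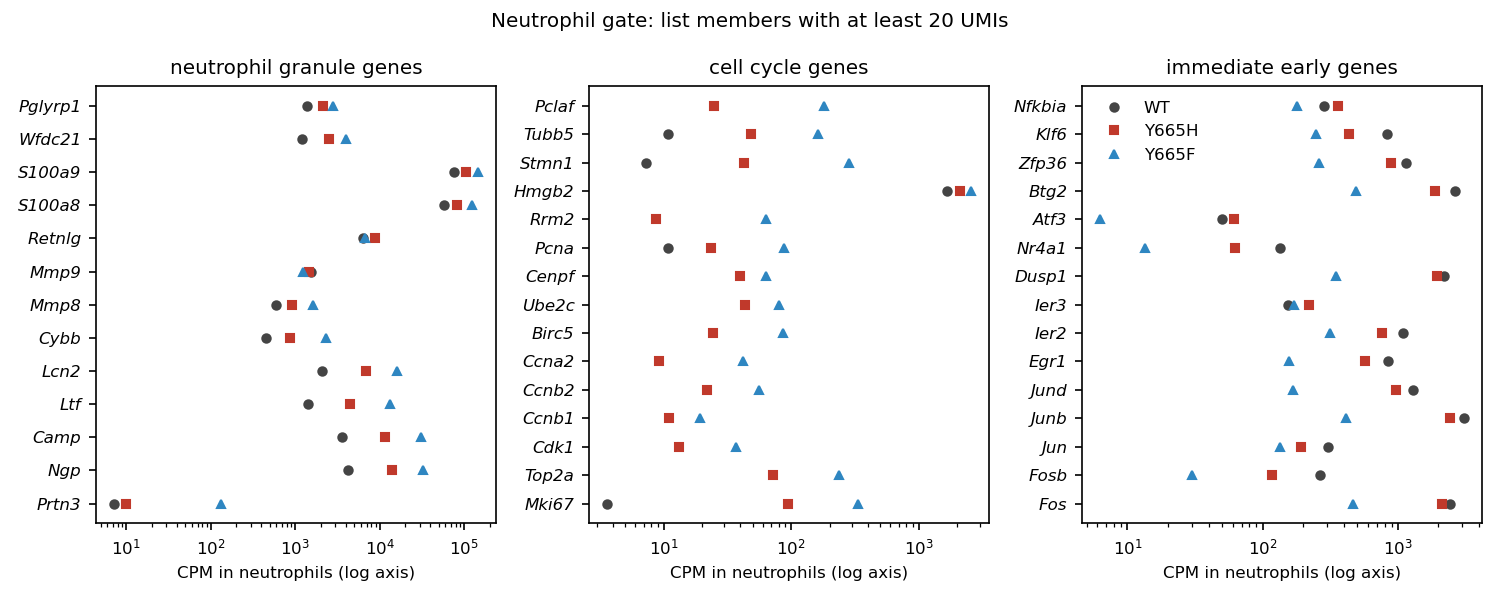
CPM in neutrophils (log axis, values of 0 not drawn, no error bars) of the members of the granule, cell cycle and immediate early lists with at least 20 UMIs in WT, Y665H and Y665F. Ngp stands at 4246, 14078 and 32933 CPM, and Fosb at 267, 117 and 30.1 CPM.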

How the data were processed

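Single-cell expression was measured with 10x Genomics kits (3′ v3.1 per the labels, 5′ v2 per the study's methods). The deposited matrices hold raw UMI counts per gene and barcode by the authors' Cell Ranger runs on mm10 (version 5.0 in the labels, 6.0.0 in the file headers). Y665F is given beside the comparison only. Of 32285 genes, 99.61% matched GENCODE vM21. Barcodes under 200 genes or over 10% of mitochondrial UMIs were dropped, which left 6866 WT and 8018 Y665H, and the highest scores against simulated doublets were removed (386 and 527, or 5.62% and 6.57%). Cells were gated on 13 lineages. Cells passing several gates, other than allowed pairs such as T and NK, were set aside, and cells passing none stayed unassigned (3.73% and 3.53%). Class names are rebuilt from markers and may differ from the authors'. UMIs were summed per class and library.

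Shares have Clopper-Pearson intervals, sums exact Poisson intervals and CPM ratios exact conditional intervals at 95%. No test was run with 1 library per group. A fold of 2 is the call, a rule of size. Within each class with at least 100 cells in both libraries, genes were ranked by the interval bound nearest to no change, and the first 10 in each direction (CD8 T, conventional CD4 T, B, NK) or 5 (other classes) were named, with list members past the fold or best known. The same ranking in neutrophils and smaller classes was added after the values were seen. Bounds against 0 UMIs use a floor of 3 counts per class sum and are not interval limits. The named classes, gene lists and rules were chosen with earlier results of these data known. Alternatives covered scaling, count minimum, filter, doublets, gates, Leiden classes, thinning and averages over cells. The tools were igraph 0.11.9, scikit-learn 1.9.0, pandas 2.3.3, scipy 1.17.1 and numpy 2.4.6 under Python 3.11.15, and the ratio code was tested on simulated data. Some genes are not reported here.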

Additional observations from a re-analysis of the deposited data

Results flagged for a closer look

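Barcodes that passed the marker gates of more than 1 lineage, other than allowed pairs such as T and NK, were set aside from all comparisons. Their share of filtered cells, 4.05% in Y665H (3.63 to 4.51), was above the 2.00% of the WT library (1.68 to 2.35) and the 1.45% of the Y665F library. They were listed because they are a signal in cells that no comparison uses. The ratio of Y665H to WT was 2.03 (1.66 to 2.499). Pairs of T and neutrophil gates were found in 12 WT and 55 Y665H barcodes, pairs of B and neutrophil gates in 4 and 22, and pairs of T and B gates in 93 and 161. T and B cells that also passed the erythroid gate numbered 0 in WT and 5 each in Y665H.

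Cells that passed no gate were used in no comparison of a named class, and Hspa1b in them stood at 132 CPM in Y665H, above 13.99 CPM in WT (log2 ratio 3.24 [2.32 to 4.33]) and 52.4 CPM in Y665F. It was listed for being above the control library in cells of no class. The same gene was higher in the gated T, B and NK cells.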

How the results depend on the processing

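No paired analysis was possible because each genotype has 1 library. Few WT cells limit the counts of neutrophils (91), gamma-delta T cells (72), plasma cells (35), monocytes (19) and erythroid cells (3). Of 91 ratios named in CD8 T, conventional CD4 T, regulatory T, B and NK cells and neutrophils, 88 stayed past 2-fold with TMM scaling, 89 with totals free of neutrophil, erythroid, immunoglobulin and mitochondrial genes, 82 with doublets kept, 84 with gates raised by 1 UMI and 89 without the cell with most UMIs, but 69 of 90 with Leiden classes, 77 of 90 as a mean over cells and 68 of 84 without cycling cells. Ratios named in the other classes and subsets were not run under these settings. The alternatives without cycling cells and without the cell with most UMIs, the naming in neutrophils, T cells with NK genes, gamma-delta T and plasma cells and the Ccl5 and granule subsets were chosen after seeing the data.

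Without neutrophils, erythroid cells and platelets the log2 share ratio of conventional CD4 T cells turned from -0.01 to 0.0939 and that of B cells moved from 0.19 to 0.30. Hist1h3c in conventional CD4 T cells turned to -0.51 with Leiden classes and -0.54 without cycling cells, and Top2a in NK cells to -0.37 without cycling cells. Olfm4 in neutrophils turned to 0.78 without the cell with most of its UMIs in each library. No WT UMI was then left, so 0.78 is a bound against the floor of 3 counts. The median of the memory and effector list in neutrophils turned from -0.38 to 0.29 with Leiden classes.

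With at least 20 UMIs, 173 genes were past 2-fold in CD8 T, 253 in conventional CD4 T, 222 in regulatory T, 146 in B, 203 in NK cells and 846 in neutrophils. With at least 100 UMIs the numbers were 24, 36, 16, 19, 9 and 133. In the CD8 T class from Leiden clusters it was 225, of which 210 were higher. Without cycling cells it was 50 in conventional CD4 T and 22 in regulatory T cells. In neutrophils the share of past-fold genes that were higher was 68.1% as reported, 92.2% with TMM and 85.7% with reduced totals, and the median of all genes moved from -0.12 to 0.14 and 0.03, so directions of small differences there depend on scaling. The cause of these changes was not tested.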

Other observations

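Monocytes (19 WT and 57 Y665H cells) had less RNA of some MHC class II genes in Y665H: Cd74, the invariant chain, stood at 5788 and 2287 CPM (-1.34 [-1.46 to -1.22]), H2-Aa at 2731 and 1042 CPM (-1.39) and the class II transactivator Ciita at 180 and 67.4 CPM (-1.42). The median log2 ratio of the class II list was -1.39 in monocytes and 0.07 in type 1 dendritic cells. It was -0.82 in type 2 dendritic cells (9 and 25 cells) and -0.89 in plasmacytoid dendritic cells (9 and 13 cells). Of 11 monocyte markers 10 were above WT in monocytes (median log2 ratio 0.35, beside 0.10 over all genes with 20 UMIs). Ly6c2, Treml4 and Cd300e were past 2-fold higher. Ly6c2, the marker of classical monocytes, stood at 400 CPM in WT and 910 in Y665H (1.19). Of the type 1 and type 2 dendritic cell lists, Wdfy4, Batf3 and Itgax were past 2-fold lower in these monocytes. The progenitor granule genes Mpo and Prtn3 had 0 and 1 UMIs in WT monocytes and 166 and 141 in Y665H.

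Cells of no gate had less Bcl2 (186 and 60.3 CPM, -1.63), Il7r (357 and 155 CPM, -1.20), Socs2 (85.4 and 25.5 CPM, -1.75) and Il2ra (49.0 and 14.4 CPM, -1.76) in Y665H than in WT. Their makeup is not known.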
